A study of Mus musculus with 9 samples.

Results

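The genes described here are 10 immediate early genes: Errfi1, Arc, Egr1, Egr2, Egr3, Ier2, Fos, Fosb, Jun and Junb. They are 10 of the 43629 genes in the count tables, found by mapping each table's Ensembl identifiers to symbols with GENCODE mouse release 21 (GRCm38), and all 10 were present. Arc and Errfi1 were chosen because their read counts moved in opposite directions after knockdown of the 2 de novo DNA methyltransferases, Dnmt3a and Dnmt3b. The other 8 were taken as well known members of the same class, to see whether that pattern extended to them. Values of Arc and Errfi1 between the groups are therefore given as a description, with no test.

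Immediate early genes are switched on within minutes of a stimulus, without new protein synthesis, by transcription factors already present in the cell. Growth factors and serum act on them largely through the ERK kinase cascade, serum response factor (SRF) with its ternary complex partners, and the cAMP response element binding protein family. Most early gene products are transcription factors that pass the signal on to a second set of genes, and others, such as Errfi1, feed back on the receptors. In heart cells Fos, Jun and Egr1 are classical early responders to stretch and growth stimuli.

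RNA was sequenced from cultured mouse ventricular cells, 9 libraries in 3 groups of 3. The groups received a pool of 4 siRNAs against Dnmt3a (DNMT3a siRNA), a pool of 4 siRNAs against Dnmt3b (DNMT3b siRNA), or a commercial negative control (negative siRNA), each at 0.012 pmol by lipofection. All cells came from CD-1 embryos of embryonic day 13.5, whose ventricles were pooled within litters, and were kept after brief pre-plating for being slow to attach, grown for 48 h in serum before transfection, harvested 72 h after it and sorted on magnetic beads for VCAM1. The serum-fed state of the cultures, the time after transfection and the sorting were shared by all groups. Whether the values are standing levels or include a response to serum, harvest or sorting was not tested. Nothing in the labels ties the libraries to separate litters or flasks, and p-values therefore cover only the spread seen between these libraries, which may be technical.

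Reads counted in genes numbered 27852412 to 35896018 per library. Dnmt3a stood at 40.3, 52.9 and 46.3 CPM (counts scaled to a common library total) after DNMT3a siRNA, against 232, 270 and 275 CPM after negative siRNA, a log2 fold change of -2.48 ± 0.11 (standard error). Dnmt3b was a low gene, at 1.17, 2.43 and 1.51 CPM after DNMT3b siRNA, against 4.32, 4.26 and 4.33 CPM after negative siRNA, which left 39.6% of the control level. Cardiomyocyte markers were present in every group, and their summed level was 6190 to 7793 CPM with DNMT3a siRNA, 7557 to 9085 CPM with DNMT3b siRNA and 2473 to 3287 CPM after negative siRNA. Fibroblast markers were also high in these libraries labelled cardiomyocyte, with sums of 61249 to 68136 CPM with DNMT3a siRNA, 57163 to 63654 CPM with DNMT3b siRNA and 63460 to 80496 CPM after negative siRNA. In bulk RNA of this kind, fewer cells of a type and less RNA per cell cannot be told apart.

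Promoter sequence was available in RefSeq (GRCm38.p6) for 6 of the 10 genes: Errfi1, Egr2, Fos, Fosb, Jun and Junb. The 120 bases upstream of the start site are shown for 4 of them, Errfi1 and Egr2 because both were lower after DNMT3a siRNA, and Fos and Jun because they were not called in either knockdown. Fosb and Junb were also called in neither and are not printed. Where a gene had several start windows, the one with the most motif matches in these 120 bases is shown. This favours matches for Errfi1 and Egr2. Capitals mark matches to the motifs searched for on both strands, which were the CArG box bound by SRF, the cAMP response element TGACGTCA, its short form TGACG (which the full element contains), the AP-1 site TGANTCA, the EGR site GCGTGGGCG and the TATA box TATAAA. The Errfi1 stretch lies at chr4:150854950-150855069 on the plus strand (1 of 2 annotated start windows), the Egr2 stretch at chr10:67537749-67537868 on the plus strand (1 of 5 windows), the Fos stretch at chr12:85473770-85473889 on the plus strand, and the Jun stretch at chr4:95052223-95052342 on the minus strand. Each is printed 5′ to 3′ in the direction of transcription.
Errfi1: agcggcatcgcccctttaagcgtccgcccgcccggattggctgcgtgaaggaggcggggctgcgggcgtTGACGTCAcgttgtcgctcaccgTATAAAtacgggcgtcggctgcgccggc
Egr2: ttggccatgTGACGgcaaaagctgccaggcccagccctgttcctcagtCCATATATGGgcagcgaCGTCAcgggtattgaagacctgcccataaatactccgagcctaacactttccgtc
Fos: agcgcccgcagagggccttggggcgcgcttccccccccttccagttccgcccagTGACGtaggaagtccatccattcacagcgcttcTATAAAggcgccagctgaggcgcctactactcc
Jun: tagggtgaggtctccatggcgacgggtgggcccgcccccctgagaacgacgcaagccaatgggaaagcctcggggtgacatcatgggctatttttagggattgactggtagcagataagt

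The Errfi1 stretch held the full cAMP response element at -51 to -44 and a TATA box at -28 to -23, counted from the start site. The Egr2 stretch held a CArG box at -72 to -63 and TGACG at -111 and, on the other strand, at -55. The Fos stretch held TGACG at -66 and a TATA box at -33. None of the motifs searched for was in the stretch shown for Jun. The windows of Fosb and Junb each held TGACG, at -60 and -106. The other Errfi1 window held none of the motifs. Of 32851 promoter windows of 250 upstream bases, 1.55% held TGACGTCA, 17.8% TGACG, 1.47% a CArG box, 6.75% TGANTCA, 0.536% GCGTGGGCG and 12.4% TATAAA. A match is only a run of letters, and binding was not measured.

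Per kilobase of exon, the 10 genes fell into an abundant and a scarce set in every group. After negative siRNA, Egr1 was the most abundant at 110 CPM per kb, followed by Junb at 85.7, Ier2 at 61.5, Jun at 28.4, Fos at 16.5 and Errfi1 at 11.6 CPM per kb, and the 3 libraries of each of these 6 genes lay apart from those of the next gene in the order. Egr2 at 1.41, Arc at 1.03, Fosb at 0.764 and Egr3 at 0.684 CPM per kb formed the scarce set, in which neighbours overlapped. After DNMT3a siRNA, Junb at 71.3 and Egr1 at 68.3 CPM per kb overlapped, and Arc (0.443 CPM per kb) and Egr3 (0.268 CPM per kb) stood at the bottom of the order. After DNMT3b siRNA, Errfi1 at 15.3 and Fos at 14.8 CPM per kb overlapped, and Arc at 2.28 CPM per kb led the scarce set. Egr3, Arc and Egr2 therefore rest on few reads: Arc had 37 to 48 counts per library after DNMT3a siRNA, 162 to 266 after DNMT3b siRNA and 66 to 136 after negative siRNA.

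**Figure D1:**
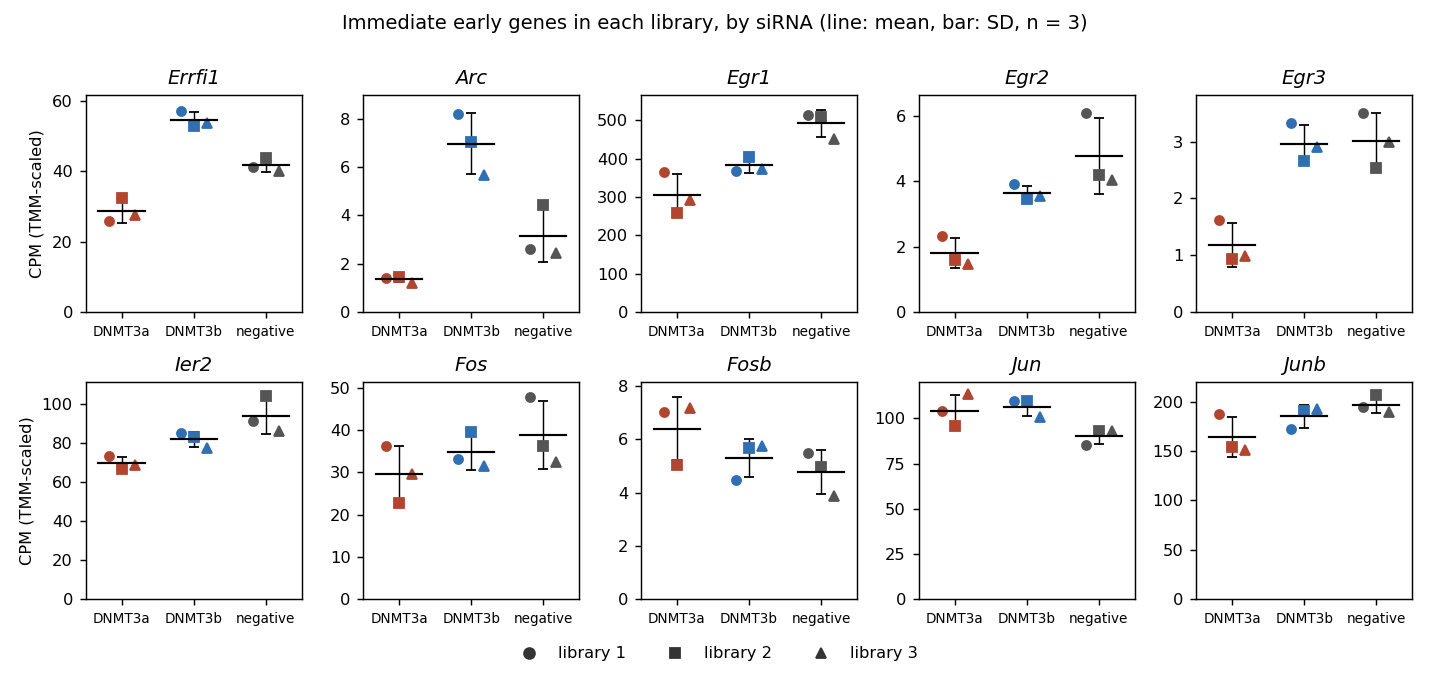
Level of each of the 10 genes (TMM-scaled CPM, linear axis from 0) in every library, with DNMT3a siRNA in red, DNMT3b siRNA in blue and negative siRNA in grey; marker shape gives the library number, the line the mean and the bar the SD of 3 libraries. Errfi1 and Arc were lowest after DNMT3a siRNA and highest after DNMT3b siRNA, whereas Egr1, Egr2 and Ier2 were highest after negative siRNA.

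Errfi1 encodes MIG6, an inducible inhibitor that binds and silences the EGF receptor family, and lies on chromosome 4 at 150853919 to 150868892, plus strand (GRCm38). Its level was 25.8, 32.4 and 27.6 CPM with DNMT3a siRNA, 57.2, 52.9 and 53.8 CPM with DNMT3b siRNA and 41.2, 43.8 and 40.0 CPM after negative siRNA. No library of any group overlapped those of another group. The log2 fold change was -0.54 ± 0.10 for DNMT3a siRNA against negative siRNA and 0.39 ± 0.10 for DNMT3b siRNA against negative siRNA, values that served to choose the gene. Over all alternative settings the first ran from -0.66 to -0.48 and the second from 0.35 to 0.44.

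Arc encodes an activity-regulated protein best known from neuronal synapses, and lies on chromosome 15 at 74669083 to 74672570, minus strand. Its level was 1.40, 1.45 and 1.21 CPM with DNMT3a siRNA, 8.18, 7.06 and 5.68 CPM with DNMT3b siRNA and 2.62, 4.42 and 2.44 CPM after negative siRNA. The groups did not overlap, but control library 2 stood well above the other controls. The log2 fold change was -1.22 ± 0.26 for DNMT3a siRNA and 1.14 ± 0.24 for DNMT3b siRNA, each against negative siRNA. Without control library 2 these became -0.90 and 1.46, so the size of each move depended on that library while the direction did not.

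Arc was also read against other early genes of the same library, which removes any scaling between libraries. Per 1000 Egr1 counts there were 3.81, 5.60 and 4.15 Arc counts after DNMT3a siRNA, 22.1, 17.4 and 15.2 after DNMT3b siRNA and 5.10, 8.67 and 5.40 after negative siRNA. On this scale DNMT3a siRNA and negative siRNA libraries overlapped, and Egr1 itself was lower after DNMT3a siRNA, whereas DNMT3b siRNA libraries lay above all others. Per 1000 Errfi1 counts there were 54.0, 44.9 and 43.9 Arc counts after DNMT3a siRNA, 143, 133 and 106 after DNMT3b siRNA and 63.6, 101 and 61.0 after negative siRNA. Here no groups overlapped, and the order was that of Arc alone.

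Neuronal markers were examined beside Arc because of its known site of expression. Of the 16 neural and Schwann cell markers, 8 passed the low-count filter, and the summed level of all 16 was 166 to 207 CPM with DNMT3a siRNA, 90.1 to 111 CPM with DNMT3b siRNA and 107 to 176 CPM after negative siRNA. The control range overlapped that of each knockdown. The 8 that did not pass, among them the neuronal genes Rbfox3, Snap25, Syp, Stmn2 and Nefl, each averaged at most 0.236 CPM in every group. With edgeR 0 of the 8 were called after DNMT3a siRNA, and 2, both higher, with the library number as a block. Camk2a was the marker called higher after DNMT3b siRNA, at 20.9 CPM against 11.8 CPM after negative siRNA (log2 fold change 0.83 ± 0.20, adjusted p = 0.0374), the direction Arc took. Of the 8 tested, 4 had positive and 4 negative log2 fold changes after DNMT3b siRNA. DESeq2 and the block each called 1 higher and 1 lower there. For DNMT3a siRNA against DNMT3b siRNA edgeR called 2 of the 8 higher and 0 lower, opposite to Arc. Of all tested genes 4.47% were called higher in that comparison. The part of neural cells in the values of Arc was not tested.

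Egr1, Egr2 and Egr3 encode zinc finger transcription factors induced through SRF and ERK. All 3 fell after DNMT3a siRNA, and none was called higher or lower after DNMT3b siRNA. Their relative Egr4, one of the other early genes described further on, averaged 0.292 CPM after DNMT3a siRNA, 0.278 CPM after DNMT3b siRNA and 0.456 CPM after negative siRNA and was called in neither (adjusted p = 0.576 and 0.548). Egr1 (chromosome 18, 34859823 to 34864984, plus strand) had 367, 260 and 292 CPM with DNMT3a siRNA, 369, 405 and 373 CPM with DNMT3b siRNA and 514, 510 and 452 CPM after negative siRNA. Both knockdown groups lay wholly below the controls.

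Egr1 was lower after DNMT3a siRNA by a log2 fold change of -0.69 ± 0.12 (62.2% of control, edgeR adjusted p = 0.00553). After DNMT3b siRNA its log2 fold change was -0.36 ± 0.12 (95% interval -0.63 to -0.10, adjusted p = 0.105), which does not show that it was unmoved. That value pointed down, as after DNMT3a siRNA, and opposite to Arc and Errfi1. It was called lower by DESeq2 (adjusted p = 0.0442), without a low-count filter (0.0184), with the 2 groups fitted alone (0.0467) and without DNMT3a library 2 (0.0498).

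Egr2 (chromosome 10, 67535475 to 67542188, plus strand), known for its part in Schwann cell myelination and hindbrain patterning, had 2.34, 1.61 and 1.47 CPM with DNMT3a siRNA, 3.90, 3.46 and 3.54 CPM with DNMT3b siRNA and 6.10, 4.19 and 4.03 CPM after negative siRNA. The 3 groups did not overlap and stood in the order DNMT3a siRNA, DNMT3b siRNA, negative siRNA from low to high. Its log2 fold change was -1.41 ± 0.23 after DNMT3a siRNA (37.7% of control, adjusted p = 0.00389) and -0.40 ± 0.22 after DNMT3b siRNA (95% interval -0.88 to 0.09, adjusted p = 0.331).

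Egr3 (chromosome 14, 70077203 to 70082614, plus strand), a close relative needed for muscle spindle development, had 1.62, 0.939 and 0.981 CPM with DNMT3a siRNA, 3.32, 2.65 and 2.91 CPM with DNMT3b siRNA and 3.51, 2.54 and 3.00 CPM after negative siRNA. The DNMT3a siRNA libraries lay below all others, and the other groups overlapped almost fully. Its log2 fold change was -1.35 ± 0.25 after DNMT3a siRNA (39.2% of control, adjusted p = 0.00724) and -0.03 ± 0.24 after DNMT3b siRNA, with a 95% interval of -0.55 to 0.49 (adjusted p = 0.966). That interval includes a rise as large as the 0.39 given for Errfi1 but not one as large as the 1.14 given for Arc.

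Ier2 (chromosome 8, 84661331 to 84662852, minus strand), a small nuclear early response protein, had 73.1, 66.4 and 68.8 CPM with DNMT3a siRNA, 85.1, 82.9 and 77.5 CPM with DNMT3b siRNA and 90.9, 104 and 85.8 CPM after negative siRNA. No groups overlapped, and the order was that of Egr2. Its log2 fold change was -0.43 ± 0.09 after DNMT3a siRNA (74.2% of control, adjusted p = 0.0111) and -0.19 ± 0.09 after DNMT3b siRNA (95% interval -0.39 to -0.0024, adjusted p = 0.227).

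The AP-1 genes, whose FOS and JUN proteins pair to form the AP-1 transcription factor, showed no called change in either knockdown. Fos (chromosome 12, 85473890 to 85477273, plus strand) had 36.1, 22.8 and 29.6 CPM with DNMT3a siRNA, 33.2, 39.5 and 31.4 CPM with DNMT3b siRNA and 47.8, 36.3 and 32.4 CPM after negative siRNA. All groups overlapped, with log2 fold changes of -0.40 ± 0.19 after DNMT3a siRNA (adjusted p = 0.216) and -0.16 ± 0.18 after DNMT3b siRNA (adjusted p = 0.665).

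Fosb (chromosome 7, 19302696 to 19310051, minus strand), the closest relative of Fos, had 7.01, 5.03 and 7.16 CPM with DNMT3a siRNA, 4.49, 5.66 and 5.75 CPM with DNMT3b siRNA and 5.49, 4.94 and 3.88 CPM after negative siRNA. The groups overlapped, and the log2 fold changes were 0.42 ± 0.19 after DNMT3a siRNA (adjusted p = 0.201) and 0.15 ± 0.19 after DNMT3b siRNA (adjusted p = 0.709). Within libraries, Fosb per 1000 Fos counts was 194, 221 and 242 after DNMT3a siRNA, 135, 143 and 183 after DNMT3b siRNA and 115, 136 and 120 after negative siRNA. The DNMT3a siRNA libraries lay above all others on this ratio, which was not tested.

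Jun (chromosome 4, 95049034 to 95052222, minus strand) had 104, 95.6 and 113 CPM with DNMT3a siRNA, 110, 109 and 101 CPM with DNMT3b siRNA and 85.3, 92.8 and 93.1 CPM after negative siRNA. Every knockdown library lay above every control, with log2 fold changes of 0.21 ± 0.08 after DNMT3a siRNA (adjusted p = 0.145) and 0.24 ± 0.08 after DNMT3b siRNA (adjusted p = 0.121), neither of which passed the threshold. Junb (chromosome 8, 84974484 to 84978718, minus strand) had 187, 154 and 151 CPM with DNMT3a siRNA, 172, 191 and 193 CPM with DNMT3b siRNA and 195, 207 and 190 CPM after negative siRNA. Its log2 fold change was -0.26 ± 0.10 after DNMT3a siRNA (adjusted p = 0.109) and -0.09 ± 0.10 after DNMT3b siRNA (adjusted p = 0.627).

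Without DNMT3a library 1, which held the highest Junb level of its group, Junb was called lower after DNMT3a siRNA (log2 fold change -0.37, adjusted p = 0.0419). Jun and Junb each overlap an opposite-strand gene in the annotation, Junos and the end of Prdx2. Whether the counting used strand is not given in the sources used here, so how reads in the overlaps were assigned is not known. Reads ambiguous between genes, 1.92% to 2.45% per library, were not counted for any gene. Junos had at most 18 counts in a library and Prdx2 at most 3423.

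**Figure D2:**
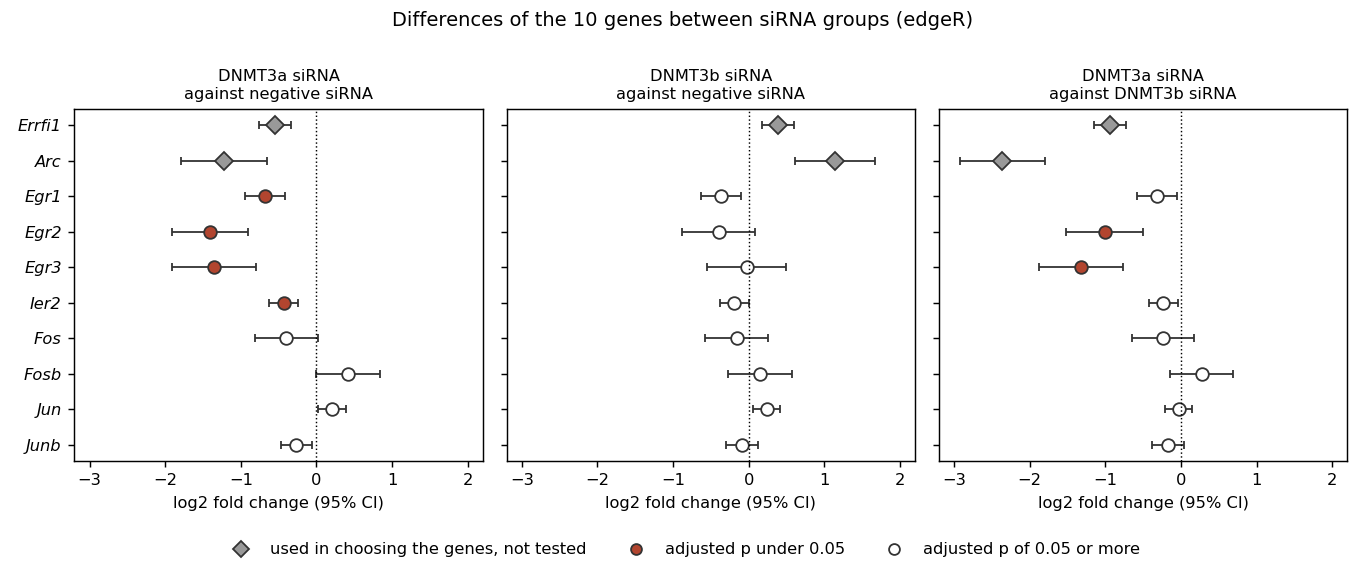
Log2 fold changes of the 10 genes in the 3 comparisons, with 95% confidence intervals from the edgeR fit of all 9 libraries; filled circles passed an adjusted p of 0.05 and grey diamonds are Arc and Errfi1, which were not tested. Egr1, Egr2, Egr3 and Ier2 are filled on the negative side for DNMT3a siRNA against negative siRNA, no circle is filled for DNMT3b siRNA against negative siRNA, and Egr2 and Egr3 are filled for DNMT3a siRNA against DNMT3b siRNA.

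Of the 8 early genes other than Arc and Errfi1, 4 were called lower and 0 higher after DNMT3a siRNA, against a background of 5.22% of all 16561 tested genes called lower, 4.87% called higher and 10.1% called in all. In 6 of the 8 the DNMT3a siRNA and negative siRNA libraries did not overlap, 5 lower and 1 higher, against 26.7% of all tested genes. Of all calls in that comparison 48.3% were higher, and 61.1% with libraries scaled by total counts alone, a setting under which the same 4 early genes were called lower. DESeq2, limma-voom and the fit with the library number as a block each also called 4 lower and 0 higher. The 4 calls of Egr1, Egr2, Egr3 and Ier2 held when any single library was left out. They did not hold when all 3 libraries numbered 3 were left out, which leaves 2 per group: the adjusted p-values were then 0.104 for Egr1, 0.0765 for Egr2, 0.153 for Egr3 and 0.105 for Ier2, with log2 fold changes of -0.72, -1.40, -1.25 and -0.49. The call of Ier2 was also lost without all libraries numbered 1 (adjusted p = 0.0725) or 2 (adjusted p = 0.0756).

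After DNMT3b siRNA, edgeR called 0 of the 8, against a background of 5.64% of tested genes called, 3.52% higher and 2.12% lower. The DNMT3b siRNA and negative siRNA libraries did not overlap in 4 of the 8, 3 lower and 1 higher, against 26.1% of tested genes. At an unadjusted p under 0.05 there were 3, Jun higher and Egr1 and Ier2 lower. DESeq2 called 1, Egr1, lower, and limma-voom called 0. None of these 8 genes was called higher after DNMT3b siRNA in any of the 20 alternative settings. Of all 16561 tested genes, only 7 were called both lower after DNMT3a siRNA and higher after DNMT3b siRNA. With so few, 8 genes cannot show whether early genes differ from other genes in this pattern. Among 44 other early genes, described further on, edgeR called 3 higher (Btg2, Ccn2 and Ier3) and 2 lower.

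The knockdowns were also compared with each other in the same fit of all 9 libraries. The control libraries are on neither side of this comparison but share its filter, scaling and estimate of spread. Arc had a log2 fold change of -2.36 ± 0.25 and Errfi1 of -0.93 ± 0.10 for DNMT3a siRNA against DNMT3b siRNA. Among the other 8 genes, 2 were called lower and 0 higher, against a background of 5.08% called lower, 4.47% called higher and 9.55% in all. Libraries did not overlap in 4 of the 8, all lower after DNMT3a siRNA, against 32.3% of tested genes. Egr3 had a log2 fold change of -1.33 ± 0.25 (39.9% of the DNMT3b siRNA level, adjusted p = 0.00991), and its call held without any single library. Egr2 had a log2 fold change of -1.01 ± 0.23 (49.7%, adjusted p = 0.0224), and its call was lost without DNMT3a library 2 (adjusted p = 0.0524) or 3 (0.0841), or without DNMT3b library 1 (0.0644), 2 (0.0707) or 3 (0.0709).

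The differences of the remaining 6 genes did not pass the threshold. Egr1 had a log2 fold change of -0.32 ± 0.12 (95% interval -0.59 to -0.06, adjusted p = 0.121) and was called lower without DNMT3a library 1 (-0.47, adjusted p = 0.0401). Ier2 had -0.24 ± 0.09 (95% interval -0.43 to -0.04, adjusted p = 0.118). The intervals were -0.65 to 0.18 for Fos, -0.15 to 0.69 for Fosb, -0.21 to 0.15 for Jun and -0.38 to 0.04 for Junb.

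**Figure D3:**
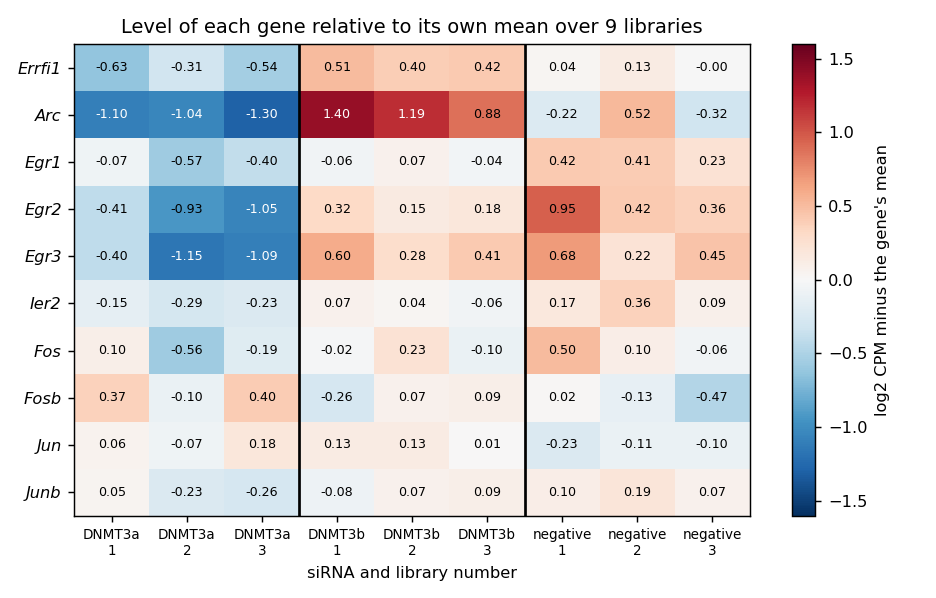
Log2 CPM of each gene minus its own mean over the 9 libraries, with libraries in columns grouped by siRNA; red is above and blue below the gene's mean, and the number in each cell is the value. Arc has its lowest value, -1.30, in a DNMT3a siRNA library and its highest, 1.40, in a DNMT3b siRNA library, the Egr2 and Egr3 rows are below their means in the 3 DNMT3a siRNA libraries and above them in the 6 others, and the Jun and Fosb rows show no such block.

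Libraries also varied within groups, and the early genes shared some of that variation. DNMT3a library 1 had the highest Egr1, Egr2, Egr3, Ier2, Fos and Junb levels of its group. Control library 1 likewise had the highest Egr1, Egr2, Egr3 and Fos levels of the controls. Arc, Errfi1, Ier2 and Junb had their highest control level in library 2.

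Macrophage markers moved in the same direction as the EGR genes after DNMT3a siRNA. The summed level of 12 such markers was 11.2 to 22.3 CPM with DNMT3a siRNA, 25.5 to 56.3 CPM with DNMT3b siRNA and 26.5 to 72.9 CPM after negative siRNA, none was at 0 in all libraries of a group, and 4 of 12 were called lower after DNMT3a siRNA (Csf1r, Adgre1, Mpeg1 and Mrc1). With the library number as a block 11 of the 12 were called lower, and with DESeq2 7. Within groups, control library 1 had the lowest macrophage sum (26.5 CPM) and the highest Egr1, Egr2 and Egr3 of the controls. DNMT3a library 1 likewise had the lowest sum of its group (11.2 CPM) and the highest Egr1, Egr2 and Egr3. DNMT3b library 1 had the lowest sum of its group (25.5 CPM) and the highest Egr2 and Egr3, but the lowest Egr1. Epicardial markers summed to 1321 to 1700 CPM with DNMT3a siRNA, 1185 to 1716 CPM with DNMT3b siRNA and 1883 to 2198 CPM after negative siRNA, so both knockdown groups lay below the controls. Endothelial markers summed to 187 to 208 CPM with DNMT3a siRNA, 245 to 260 CPM with DNMT3b siRNA and 182 to 217 CPM after negative siRNA. Smooth muscle markers summed to 8236 to 9364 CPM with DNMT3a siRNA, 8350 to 9947 CPM with DNMT3b siRNA and 5867 to 8560 CPM after negative siRNA. Single markers were called after DNMT3a siRNA as follows: 12 of 14 cardiomyocyte markers higher (13 with the block), 3 of 11 fibroblast markers lower (3 with the block), and 1 of 8 epicardial markers higher and 3 lower (1 and 2 with the block). No endothelial or smooth muscle marker was called by edgeR without the block, and 0 endothelial and 2 smooth muscle markers, both higher, with it. After DNMT3b siRNA 13 of 14 cardiomyocyte markers and 1 of 10 endothelial markers were called higher, and 3 of 11 fibroblast and 1 of 8 epicardial markers lower. Of all 16561 tested genes, edgeR called 4.87% higher and 5.22% lower after DNMT3a siRNA, and 6.79% and 7.52% with the block. DESeq2 called 1004 higher and 1299 lower. After DNMT3b siRNA edgeR called 3.52% higher and 2.12% lower. The part of these cell types in the early gene results was not tested.

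The share of alignments that were not unique, and so not counted, was 36.6% to 40.1% after DNMT3a siRNA, 41.5% to 42.5% after DNMT3b siRNA and 41.3% to 42.5% after negative siRNA. Its part in the DNMT3a siRNA results was not tested.

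Related gene lists were read beside the 10 genes, starting with 44 other immediate early genes. The counts of each list are to be read against the shares of all 16561 tested genes called by edgeR. These were 4.87% higher and 5.22% lower after DNMT3a siRNA, and 3.52% higher and 2.12% lower after DNMT3b siRNA. For DNMT3a siRNA against DNMT3b siRNA they were 4.47% higher and 5.08% lower. After DNMT3a siRNA 0 of the 44 were called higher and 1 lower, with a median log2 fold change of -0.04 beside 0.02 for all tested genes. The gene was Plk3, a stress-responsive kinase, at 19.1 CPM against 28.9 CPM after negative siRNA (log2 fold change -0.60 ± 0.11, adjusted p = 0.00769). With the library number as a block, 1 was called higher (Atf3, log2 fold change 0.73, adjusted p = 0.0473) and 3 lower (Plk3, Klf10 and Cebpb), where 6.79% and 7.52% of all tested genes were called higher and lower. The classical early genes Nr4a1, Dusp1, Zfp36 and Myc had log2 fold changes of -0.12, -0.33, -0.34 and -0.13, and none passed the threshold (adjusted p = 0.580, 0.0758, 0.103 and 0.526).

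After DNMT3b siRNA 3 of the 44 were called higher and 2 lower, with a median log2 fold change of 0.13 beside 0.00 for all tested genes. Btg2, an antiproliferative early gene, had 216 CPM against 142 CPM after negative siRNA (log2 fold change 0.61 ± 0.11, adjusted p = 0.0109). Ccn2, a matricellular growth factor, had 1342 CPM against 885 CPM in controls (0.60 ± 0.13, adjusted p = 0.0211), and Ier3, a survival-linked early gene, 131 CPM against 85.9 CPM in controls (0.61 ± 0.15, adjusted p = 0.0407). Klf2 and Klf4, Krüppel-like transcription factors, were lower, with 24.0 CPM against 57.7 CPM in controls (-1.27 ± 0.19, adjusted p = 0.00431) and 25.2 CPM against 48.0 CPM in controls (-0.93 ± 0.20, adjusted p = 0.0278).

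The calls of Btg2 and Klf2 held without any single library. Those of Ccn2 and Klf4 were each lost without control library 1 or 3 or DNMT3b library 2 or 3, with adjusted p-values of 0.0521 to 0.106 and 0.0719 to 0.128. The call of Ier3 was lost without control library 1 or 3, DNMT3b library 2 or 3, or any DNMT3a library (adjusted p 0.0592 to 0.185). After DNMT3a siRNA, Btg2, Ccn2, Ier3, Klf2 and Klf4 had log2 fold changes of 0.32, 0.06, 0.31, -0.40 and 0.10, none past the threshold.

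ERK feedback and output genes, which are switched on by ERK signalling and mostly restrain it, held 5 lower and 0 higher of 17 after DNMT3a siRNA, with a median log2 fold change of -0.25. The library block added Dusp4, an ERK phosphatase gene (-0.55, adjusted p = 0.0313), for 6 lower, and DESeq2 called 8 lower and 1 higher. Of all 16561 tested genes, edgeR called 5.22% lower and 4.87% higher without the block and 7.52% and 6.79% with it. DESeq2 called 1299 lower and 1004 higher. Spred2, an inhibitor of Ras activation, fell to 45.1 CPM with DNMT3a siRNA, against 62.9 CPM after negative siRNA (log2 fold change -0.48 ± 0.09, adjusted p = 0.00585). Dusp6, another phosphatase of ERK, fell to 78.6 CPM against 102 CPM in controls (-0.38 ± 0.08, adjusted p = 0.0145), and the ERK-responsive transcription factor gene Etv5 to 34.8 CPM against 46.7 CPM in controls (-0.42 ± 0.10, adjusted p = 0.0193). Spry4, a receptor tyrosine kinase antagonist, and Etv4 had log2 fold changes of -0.49 ± 0.13 and -0.33 ± 0.09 (adjusted p = 0.0376 each).

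The Spred2 call held without any single library. The calls of Dusp6 (adjusted p = 0.0502 without control library 1, 0.0623 without DNMT3a library 1) and Etv5 (0.0737 without control library 3, 0.0712 without DNMT3a library 1) did not. Etv4 lost its call without any control library or without DNMT3a library 1 or 3 (0.0603 to 0.125), and Spry4 without control library 1 or 3, DNMT3a library 1 or 2, or any DNMT3b library (0.0551 to 0.136). Spry1 and Spry2 had log2 fold changes of -0.17 and -0.16, and Ccnd1, encoding cyclin D1, of 0.21, none past the threshold.

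After DNMT3b siRNA edgeR called 0 of the 17 ERK genes, with a median log2 fold change of -0.03. At an unadjusted p under 0.05 there were 4, DESeq2 called 3 lower (Dusp5, Spry2 and Ccnd1) and limma-voom 0. For DNMT3a siRNA against DNMT3b siRNA, 5 of the 17 were called lower and 0 higher: Spred2 (-0.53 ± 0.09, adjusted p = 0.00499), Spry4 (-0.65 ± 0.13, 0.0127), Dusp6 (-0.35 ± 0.08, 0.0230), Etv5 (-0.40 ± 0.10, 0.0293) and Spred1 (-0.30 ± 0.08, 0.0472). Of these the Spred2 call held without any single library. The others were lost without DNMT3a library 1, and also without DNMT3b library 3 for Spry4 (highest adjusted p 0.0627), DNMT3b library 1 or 2 for Dusp6 (0.0993), DNMT3a library 2 or any DNMT3b library for Etv5 (0.107), and any other knockdown library or control library 1 for Spred1 (0.188).

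Of 22 genes of the EGF receptor family, its ligands and regulators, the system that Errfi1 restrains, 21 passed the low-count filter. After DNMT3a siRNA 2 were called lower and 1 higher, 3 of 21 where 10.1% of all tested genes were called, with a median log2 fold change of 0.03. The adaptor genes Shc1 and Grb2, which link active receptors to Ras, fell to 108 CPM against 186 CPM after negative siRNA (log2 fold change -0.78 ± 0.07, adjusted p = 1.77e-04) and to 37.9 CPM against 67.5 CPM in controls (-0.83 ± 0.08, adjusted p = 1.89e-04), and both calls held without any single library. Gab1, a docking protein, was higher at 111 CPM against 86.0 CPM in controls (0.37 ± 0.09, adjusted p = 0.0280), a call lost without control library 1 or 3, DNMT3a library 1 or 3, or DNMT3b library 2 or 3 (0.0524 to 0.0992). With the library number as a block, 4 were lower and 2 higher, the added genes being the ligands Ereg and Nrg1 (lower) and the receptor Erbb4 (higher).

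The receptor gene Egfr itself had log2 fold changes of -0.22 ± 0.14 after DNMT3a siRNA (adjusted p = 0.389) and 0.01 ± 0.14 after DNMT3b siRNA (adjusted p = 0.968). After DNMT3b siRNA 1 of the 21 was higher, the ligand Hbegf at 55.5 CPM against 42.9 CPM in controls (0.37 ± 0.08, adjusted p = 0.0223), and 1 lower, the ligand-shedding protease Adam17 at 65.4 CPM against 79.6 CPM in controls (-0.28 ± 0.07, adjusted p = 0.0450). The Hbegf call was lost without control library 1 or 3 or any DNMT3b library (0.0566 to 0.112), and that of Adam17 without any library except control library 2 and DNMT3a library 2 (0.0509 to 0.191). For DNMT3a siRNA against DNMT3b siRNA, Shc1 (-0.81 ± 0.07, adjusted p = 3.61e-04), Grb2 (-0.97 ± 0.08, 2.09e-04) and Hbegf (-0.44 ± 0.08, 0.00856) were lower and Gab1 (0.62 ± 0.09, 0.00299) higher, and these 4 calls held without any single library.

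Transcriptional regulators of early genes, a list of 19, had a median log2 fold change of -0.04 after DNMT3a siRNA. Where 4.87% of all tested genes were called higher and 5.22% lower, the list held 0 higher and 3 lower. They were Atf1, a cAMP response element binding factor, at 17.1 CPM against 28.9 CPM after negative siRNA (-0.76 ± 0.08, adjusted p = 3.62e-04), Nab1, a corepressor of EGR proteins, at 77.2 CPM against 114 CPM in controls (-0.56 ± 0.10, adjusted p = 0.00736), and Elk4, an SRF partner, at 70.9 CPM against 92.4 CPM in controls (-0.38 ± 0.08, adjusted p = 0.00978). All 3 calls held without any single library, and the library block added Nab2, another EGR corepressor gene (-0.25, adjusted p = 0.0440). Srf and Creb1 had log2 fold changes of 0.23 ± 0.08 (adjusted p = 0.0781) and -0.01 ± 0.08 (adjusted p = 0.947).

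After DNMT3b siRNA 1 of the 19 was lower and 0 higher, the SRF coactivator gene Mrtfb (-0.38 ± 0.08, adjusted p = 0.0206), a call lost without control library 1 or 3 or DNMT3b library 2 or 3 (0.0740 to 0.103). With DNMT3a siRNA set against DNMT3b siRNA, Atf1 (-0.74 ± 0.08, adjusted p = 7.29e-04), Nab1 (-0.53 ± 0.10, 0.0119) and Nab2 (-0.43 ± 0.09, 0.0135) were lower and the coactivators Crtc3 (0.42 ± 0.10, 0.0244), Ep300 (0.36 ± 0.09, 0.0311) and Crtc1 (0.41 ± 0.12, 0.0498) higher. The Atf1 call held without any single library. Nab1 lost its call without DNMT3a library 1 (0.0586), Nab2 without DNMT3a library 1 or 3 or DNMT3b library 2 (0.0572 to 0.0678), and Crtc3 and Ep300 without DNMT3a library 1 or 3 or any DNMT3b library (0.0645 to 0.106 and 0.0835 to 0.130). The same libraries and control libraries 1 and 3 ended the call of Crtc1 (0.0526 to 0.196).

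Of 14 tested AP-1 dimer partners, edgeR called 0 in either knockdown against negative siRNA, and the medians were -0.05 after DNMT3a siRNA and 0.02 after DNMT3b siRNA. The library block called 1 after DNMT3a siRNA, Atf3, higher (adjusted p = 0.0473). At an unadjusted p under 0.05 there were 2 after DNMT3a siRNA and 4 after DNMT3b siRNA, and DESeq2 called 1 (Atf3, higher) after DNMT3a siRNA and 0 after DNMT3b siRNA, as limma-voom did for DNMT3b siRNA. Fosl1, which encodes FRA1, was lower for DNMT3a siRNA against DNMT3b siRNA, at 2.43 CPM after the first and 4.86 CPM after the second (adjusted p = 0.0180), and that call was lost without DNMT3a library 3 or DNMT3b library 2 or 3 (0.0709 to 0.0741). Its log2 fold changes against negative siRNA were -0.34 ± 0.22 after DNMT3a siRNA and 0.66 ± 0.22 after DNMT3b siRNA, with adjusted p-values of 0.390 and 0.102.

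Among the 44 other early genes, 2 were higher and 3 lower for DNMT3a siRNA against DNMT3b siRNA, with a median of -0.22 beside 0.01 for all tested genes. Klf4 (1.03 ± 0.20, adjusted p = 0.0146) and Klf2 (0.86 ± 0.18, 0.0186) were higher, and Fosl1, Ccn2 (-0.54 ± 0.13, 0.0264) and Cebpb (-0.58 ± 0.15, 0.0415) lower. Each of these calls was lost without 1 or more of the knockdown libraries: Klf4 and Klf2 without DNMT3a library 1 or 3 or DNMT3b library 2 or 3 (up to 0.0711 and 0.0876), Ccn2 without those or DNMT3b library 1 (up to 0.101), and Cebpb without any knockdown library (up to 0.154).

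Heat shock genes, which respond to culture and handling stress, were read as a control list of 11. Without the library block edgeR called 0 of the 11 in each comparison, with medians of 0.06 after DNMT3a siRNA and 0.07 after DNMT3b siRNA. At an unadjusted p under 0.05 there was 1 after DNMT3a siRNA and there were 2 after DNMT3b siRNA, and DESeq2 called 1 (Hspd1, lower) after DNMT3a siRNA and 0 after DNMT3b siRNA. With the block, Hspb1 was called higher (0.39, adjusted p = 0.0260) and Hspd1 lower (-0.35, adjusted p = 0.0307) after DNMT3a siRNA.

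**Figure D4:**
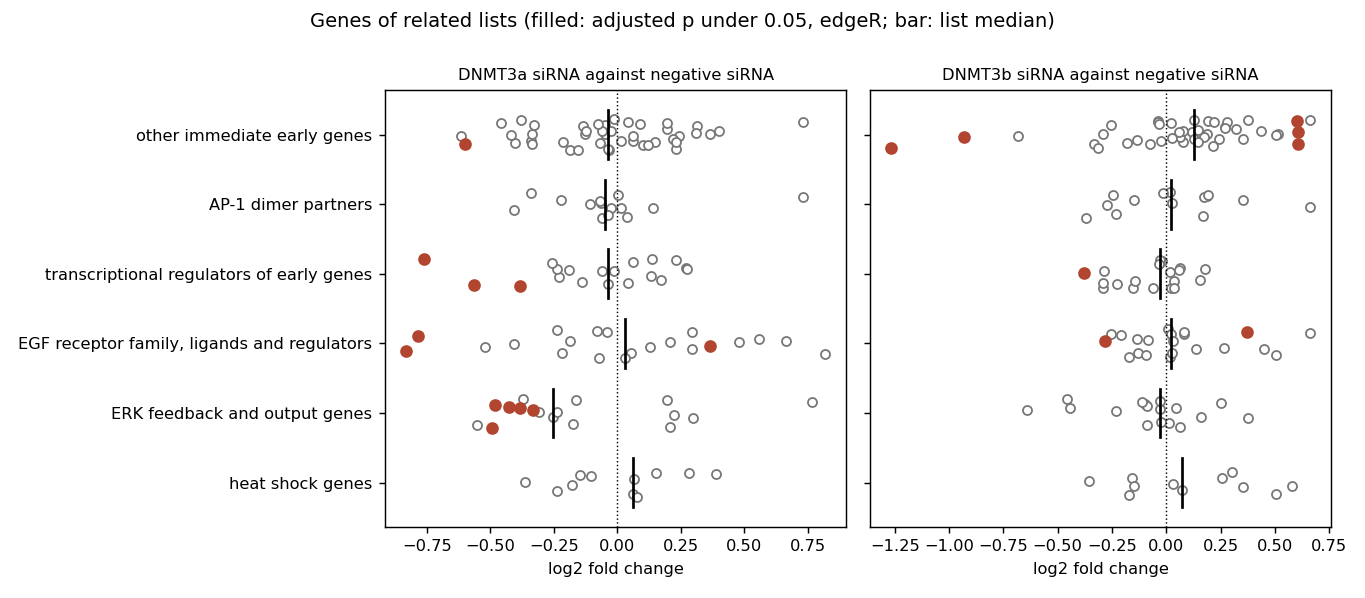
Log2 fold changes of single genes in 6 related lists, for DNMT3a siRNA (left) and DNMT3b siRNA (right) against negative siRNA; filled points passed an adjusted p of 0.05 in edgeR and black bars are list medians. The ERK feedback list has its median at -0.25 with 5 filled points on the negative side after DNMT3a siRNA, and at -0.03 with 0 filled points after DNMT3b siRNA.

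The genes whose course over the 9 libraries was most like those of Arc and Errfi1 were taken from 10830 protein-coding genes, by the root mean square difference of their centred log2 CPM. For Errfi1 they were Ctsb (0.0689), Sucla2 (0.0711), Pfdn1 (0.0942), Prkaca (0.0957) and 1810037I17Rik (0.0974), of which Ctsb, a lysosomal protease, averaged 347 ± 21.7 CPM after DNMT3a siRNA, 663 ± 54.2 CPM with DNMT3b siRNA and 534 ± 19.4 CPM after negative siRNA (SD, n = 3 each). For Arc they were Cox7a2 (0.376), Tcim (0.396), Serpina3f (0.405), Rgs16 (0.430) and Parm1 (0.431), of which Parm1 averaged 59.9 ± 9.23 CPM with DNMT3a siRNA, 173 ± 19.8 CPM with DNMT3b siRNA and 75.4 ± 18.6 CPM after negative siRNA. None of the 10 named was an immediate early gene of the lists above, and the differences were larger for Arc, a gene of few counts, than for Errfi1. Egr2 and Egr3, at an average log2 CPM of 1.80 and 1.29, lay below the limit and could not be named. Their differences from Arc were 0.756 and 0.641.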

How the data were processed

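Poly(A) RNA of 9 libraries of sorted mouse embryonic ventricular cells was sequenced, and the authors deposited whole-number read counts per Ensembl gene, 1 table per library, not normalised. The submitters' processing notes name FastQC, TopHat2, HTSeq and the builds mm10 and GRCm38, without versions. The sources used here give neither the strand setting nor the annotation release. The 5 summary lines of each table, among them the reads that were not unique, were left out.

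A low-count filter (filterByExpr in edgeR, minimum count 10 and minimum total 15) left 16561 genes, and libraries were scaled by TMM. All 9 libraries entered 1 edgeR quasi-likelihood fit with group as its term (edgeR 4.0.16, R 4.3.3, robust). Groups were compared pairwise with the two-sided F test and Benjamini-Hochberg adjustment over all tested genes, and an adjusted p under 0.05 is a call. Unless another tool is named, every adjusted p is from this test. Standard errors are the fold change divided by the root of F. The code was checked on simulated counts. CPM are TMM-scaled, and exon lengths came from GENCODE release 21. Alternatives were limma-voom 3.58.1, DESeq2 1.42.0, other scalings and filters, the groups compared alone, library number as a block, and single libraries left out. Leaving out all libraries of 1 number was added after seeing the data.

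What a library number marks is not in the labels. Within-group deviations were correlated between DNMT3a siRNA and negative siRNA libraries of the same number (r = 0.434, 0.513 and 0.459), each over 0.1. The main fit does not use this pairing, and its values are those given unless the block is named. For this comparison a fit with the block stands beside any result whose calls it changes.

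The genes and lists were chosen with earlier results of these data known. All 10 early genes are reported; of each pathway list every called gene up to 6 was named by smallest adjusted p. The rule also covered the cell marker lists, but these are given by sums and counts, and the markers and other genes named were chosen after their values were seen.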

Additional observations from a re-analysis of the deposited data

How the results depend on the processing

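No called result listed here changed its direction under any alternative run. For all tested genes, the 1671 calls of DNMT3a siRNA against negative siRNA became 946 with the groups fitted alone and 2370 with the replicate block. They became 868 to 1839 when single libraries were left out. The 934 calls of DNMT3b siRNA against negative siRNA became 1715 with DESeq2, 1801 with the replicate block and 287 to 1781 when single libraries were left out. The 1582 calls of DNMT3a siRNA against DNMT3b siRNA became 2513 with the replicate block and 524 to 1962 with single libraries left out. Without all libraries numbered 1 the 3 counts were 478, 349 and 367, and without those numbered 3 they were 182, 49 and 87. These alternatives have fewer libraries; otherwise the cause was not tested.

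Among the 8 early genes other than Arc and Errfi1, the 4 calls after DNMT3a siRNA ranged from 4 to 5 with single libraries left out, and were 3 without all libraries numbered 1, 3 without those numbered 2 and 0 without those numbered 3. The 0 calls after DNMT3b siRNA became 1, Egr1, without a low-count filter, with DESeq2, with the groups fitted alone, and ranged from 0 to 1 with single libraries left out. The 2 calls of DNMT3a siRNA against DNMT3b siRNA ranged from 1 to 3 with single libraries left out, and were 1 without all libraries numbered 2 and 0 without those numbered 3.

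Deviations of DNMT3b siRNA libraries were more weakly correlated with same-number libraries of negative siRNA (r = 0.212, 0.101 and 0.0334) and DNMT3a siRNA (0.161, 0.0776 and 0.0414). Some of these values were also over 0.1. In every group, DNMT3b siRNA included, the macrophage marker sum was lowest in library 1 and highest in library 3. The replicate block left the 3 counts of called early genes at 4, 0 and 2. Of the related lists, DESeq2 called 4 of the 44 other early genes after DNMT3a siRNA where edgeR called 1, 9 ERK genes where it called 5, 7 EGF receptor genes where it called 3, 5 regulators where it called 3, 3 neural markers where it called 0 and 1 smooth muscle marker where it called 0. After DNMT3b siRNA it called 3 regulators, 4 epicardial markers and 2 neural markers, where edgeR called 1 of each, and 1 smooth muscle marker where edgeR called 0. For DNMT3a siRNA against DNMT3b siRNA it called 4 macrophage markers where edgeR called 0. The block called 9 other early genes where 5 were called without it, 3 ERK genes where 0 were, 3 regulators where 1 was, 1 heat shock gene (Hsph1, lower) where 0 were, 2 macrophage and 2 smooth muscle markers where 0 were, 3 endothelial markers where 1 was and 2 neural markers where 1 was, after DNMT3b siRNA. It called 8 other early genes where 5 were called, 9 macrophage markers where 0 were and 4 endothelial markers where 0 were, for DNMT3a siRNA against DNMT3b siRNA. Most list calls said above to hold without any single library were lost without all libraries numbered 3. Their adjusted p-values were then 0.0560 (Atf1, DNMT3a siRNA against DNMT3b siRNA) to 0.158 (Hbegf, same comparison). Those of Shc1 and Grb2, and that of Atf1 for DNMT3a siRNA against negative siRNA, held there too. Low counts limit Arc, Egr2 and Egr3 most.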
